A study of Mus musculus with 24 samples.

Results

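The genes described here are 8 transcription factor genes of the mouse primitive streak and early mesoderm, T, Eomes, Mixl1, Mesp1, Mesp2, Tbx6, Msgn1 and Evx1, together with the growth factor gene Fgf8. They were chosen by name as 9 of the 53465 genes in the deposited expression table, with earlier results of these data known. The libraries came from mouse embryonic stem cells labelled as Atf3 knockout (KO) or wild type (WT), sequenced at the start of differentiation (day 0) and on days 3, 6 and 9, with 3 libraries in each of 8 groups. The groups were KO day 0, KO day 3, KO day 6 and KO day 9, set against WT day 0, WT day 3, WT day 6 and WT day 9. All 24 libraries shared the same stem cell source, and the recorded culture medium held serum, leukemia inhibitory factor, the GSK3 inhibitor CHIR99021 and the MEK inhibitor PD0325901. The sources used here do not name the differentiation medium, the edited part of Atf3 or how many clones make up the KO. Whether the 3 libraries of each group are separate cultures is not stated, and the p-values therefore measure a spread between libraries that may be purely technical. The batch named in the labels is the genotype and day itself, so batch and group cannot be told apart.

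The primitive streak is the site where epiblast cells leave the epithelium and become mesoderm and endoderm during gastrulation. Nodal, WNT and BMP signals switch on T and Eomes there, these factors act on Mesp1, Mixl1 and other targets, and Fgf8 drives the migration of cells away from the streak. Stem cells that differentiate in culture pass through a comparable, short-lived expression of these genes. ATF3, the factor that was knocked out, is a stress-induced member of the ATF/CREB family that binds DNA as a dimer.

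Library depth ran from 7855624 to 25274442 reads with a median of 15611781, recovered from the steps in the FPKM values (fragments per kilobase of gene, scaled per library). That scaling was not in proportion to these depths. In WT day 6 replicate 3, with 7855624 reads, 1 read per kilobase was worth 0.229 FPKM. In WT day 9 replicate 1, with 25274442 reads, it was worth 0.0286 FPKM. Genes of ribosomal RNA type took 4.42% of reads in the library with the lowest share (95% Wilson interval 4.411 to 4.427%). The highest share was 45.6% (45.58 to 45.65%), in WT day 6 replicate 3, which had 4272090 reads outside those genes, the fewest of all. These Wilson intervals cover counting error only. Atf3 averaged 0.172, 0.436, 1.70 and 0.534 FPKM in KO cells on days 0, 3, 6 and 9, against 1.86, 10.4, 15.8 and 15.0 FPKM in WT cells (n = 3 each). The groups did not overlap on any day, and 1 KO library, day 6 replicate 3, stood apart from the other KO libraries with 4.17 FPKM of Atf3 from 181 reads. All 8 naive stem cell markers (Nanog, Esrrb, Zfp42, Klf2, Klf4, Tfcp2l1, Prdm14 and Dppa3) averaged at least 1 FPKM on day 0 in both genotypes, with summed levels of 963 to 1210 FPKM in KO and 1055 to 1151 FPKM in WT libraries.

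In WT cells T, Mesp1, Fgf8 and Evx1 had their highest mean levels on day 6. Of these 4, the main limma fit called only Evx1 higher on day 6 than on day 3 in KO cells. Mesp1 was not called there, though all its KO values on day 6 lay above those on day 3. T, Mesp1 and Fgf8 were lower in KO cells on day 6, with differences of -2.77, -1.88 and -1.84 on the log2(FPKM + 1) scale. For Evx1 the 95% interval of the difference was -0.58 to 0.52. On that scale, low genes show less than their true change. limma, fitted to all 15159 genes with at least 1 FPKM in at least 3 libraries, called 3 of the 7 tested members lower and 0 higher in KO cells on day 6 (Benjamini-Hochberg adjusted p under 0.05). Of these 3, Mesp1 passed that filter only through the WT day 6 libraries, where it was high. Over all genes tested, 0.495% were called lower and 0.231% higher. In 5 of the 7 tested members all KO values lay below all WT values on day 6 (T, Eomes, Mesp1, Mesp2 and Fgf8), against 3.73% of all genes tested. Tbx6 and Msgn1 did not reach the filter and were not tested. In these bulk libraries, fewer cells of a type and less RNA per cell cannot be told apart.

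**Figure D1:**
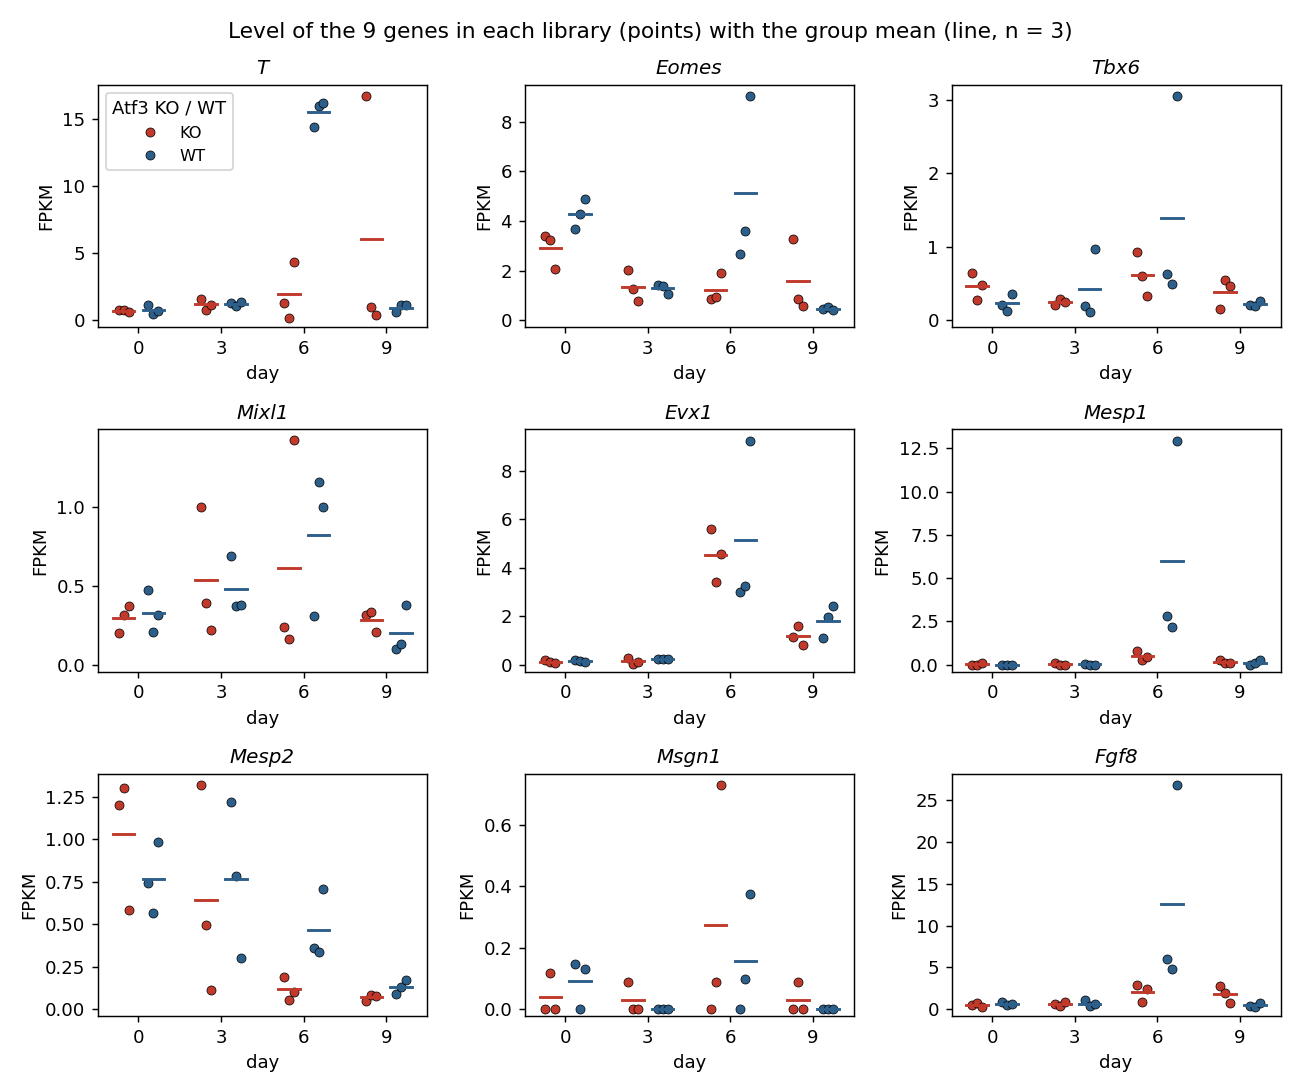
FPKM of each of the 9 genes in every library (points) on days 0, 3, 6 and 9, with KO in red left of WT in blue and the mean of 3 libraries as a line; each panel has its own linear axis. T sits between 14.4 and 16.2 FPKM in the 3 WT libraries of day 6 and at or below 4.35 FPKM in the 3 KO libraries, while KO day 9 replicate 1 alone reaches 16.7 FPKM.

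T encodes Brachyury, the founding T-box factor, which mesoderm formation in the posterior streak requires. It lies at chr17:8434423-8442496 on the plus strand of mm10. On day 6, T measured 1.28, 0.164 and 4.35 FPKM in KO replicates 1, 2 and 3, against 14.4, 16 and 16.2 FPKM in WT replicates. Every KO value lay well below the lowest WT value, and the KO libraries spread far more widely than the WT libraries. The mean was 1.93 ± 2.17 FPKM in KO and 15.6 ± 0.99 FPKM in WT cells (SD, n = 3 each), 8.06-fold lower in KO. It was 6.89-fold lower without KO replicate 1, 5.53-fold without KO replicate 2 and 21.6-fold without KO replicate 3. limma gave a log2 difference of -2.77 (SE 0.61, 95% interval -4.04 to -1.50, adjusted p = 0.0364), and the exact two-sided permutation test gave p = 0.1, the smallest p that 3 against 3 libraries allow. On day 0 the level was 0.584 to 0.781 FPKM in KO and 0.474 to 1.13 FPKM in WT libraries, and on day 3 it was 0.777 to 1.61 FPKM in KO and 1.06 to 1.38 FPKM in WT libraries. Both early days overlapped between genotypes.

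On day 9, T stood at 16.7, 0.997 and 0.383 FPKM in KO replicates 1, 2 and 3, against 0.606, 1.10 and 1.10 FPKM in WT replicates. A single KO library, with 862 reads of T, therefore held a level like that of WT day 6, and the other KO libraries lay within or near the WT range. The difference of 0.93 (95% interval -0.34 to 2.2) did not pass (limma, adjusted p = 1). The 3 genes whose course was most like T over the 24 libraries were Samd3 (Pearson r = 0.92), Cer1, a secreted Nodal and BMP antagonist (0.89), and Slit1, a secreted guidance factor (0.85). These points share genotype, day and library, and r is given as a description. The same KO day 9 library led its group in Samd3, with 1.80 FPKM against 0.0435 and 0.00976 FPKM in replicates 2 and 3. Samd3 was picked by its likeness to T over libraries that include this one, so its level there is no separate support.

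The stretch before the T start is shown because T responds to WNT in the streak of the embryo and its level here carried the difference. RefSeq's promoter table (build GRCm38.p6) has 250 bases before the start at chr17:8434173-8434422, plus strand, with capitals for the TCF/LEF core CTTTGA read on either strand.
T: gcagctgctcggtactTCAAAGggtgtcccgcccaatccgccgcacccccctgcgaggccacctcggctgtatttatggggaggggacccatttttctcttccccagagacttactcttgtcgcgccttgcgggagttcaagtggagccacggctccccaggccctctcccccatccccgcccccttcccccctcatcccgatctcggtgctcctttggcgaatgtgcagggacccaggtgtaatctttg
The core occurs once, starting 234 bases before the start. Of the 7 members with a promoter in the table, 3 hold this core in the same window (T, Mesp1 and Msgn1), against 13.8% of all 32851 promoters. The ATF/CREB element TGACGTCA (1.55% of all promoters), the AP-1 element TGANTCA (6.75%) and the T-box site AGGTGTGA (1.12%), searched on both strands, occur in 0 of the 7. These motifs were chosen after the sequences had been seen, and a match or its absence in this window says nothing of binding.

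Eomes, a T-box factor for the anterior streak, definitive endoderm and cardiac mesoderm, lies at chr9:118478212-118486132 on the plus strand, where the antisense gene Gm33460 overlaps it. It was already present on day 0, at 2.05 to 3.39 FPKM in KO and 3.67 to 4.87 FPKM in WT libraries. Those groups did not overlap, and the difference of -0.45 (95% interval -1.15 to 0.26) did not pass (limma, adjusted p = 1). In day 6 libraries Eomes measured 0.844, 0.939 and 1.89 FPKM in KO replicates 1, 2 and 3, against 2.69, 3.59 and 9.05 FPKM in WT replicates. All KO libraries lay below all WT libraries, with WT replicate 3 far above its group. The difference of -1.35 (SE 0.34, 95% interval -2.05 to -0.64) missed the threshold (limma, adjusted p = 0.0765). On day 9 the order was the other way, with 3.27, 0.873 and 0.569 FPKM in KO replicates 1, 2 and 3, against 0.434, 0.529 and 0.421 FPKM in WT replicates. All KO values lay above all WT values, and the difference of 0.67 (95% interval -0.03 to 1.37) did not pass (limma, adjusted p = 1). Without a stated strand setting, reads of Eomes and Gm33460 cannot be told apart. The genes most like Eomes over the 24 libraries were Zfp646 (r = 0.81), Chga and Cntnap2 (0.79 each).

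Tbx6, the T-box factor that directs paraxial mesoderm away from a neural fate, lies at chr7:126781483-126785560 on the plus strand and stayed below 1 FPKM in 23 of the 24 libraries. On day 6 it measured 0.921, 0.600 and 0.330 FPKM in KO replicates, against 0.633, 0.492 and 3.05 FPKM in WT replicates. The groups overlapped, and the single high value, from 24 reads, was again WT day 6 replicate 3. Mixl1, the paired-type homeobox gene of the streak, lies at chr1:180693043-180697034 on the minus strand. Its highest values were 1.43 FPKM in KO day 6 replicate 3 and 1.16 FPKM in WT day 6 replicate 2. Day 6 values ranged from 0.165 to 1.43 FPKM in KO and from 0.306 to 1.16 FPKM in WT libraries, and the difference of -0.23 (95% interval -0.72 to 0.27) did not pass (limma, adjusted p = 0.706). The genes most like Mixl1 were Relt (r = 0.77), Nrarp, a feedback inhibitor of Notch signalling (0.75), and Gbp3 (0.74).

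Evx1, an even-skipped homeobox gene of the proximal posterior streak, lies at chr6:52313498-52318378 on the plus strand, overlapped by the antisense gene Evx1os. Evx1 on day 6 measured 5.62, 3.43 and 4.55 FPKM in KO replicates 1, 2 and 3, against 2.99, 3.23 and 9.25 FPKM in WT replicates. The groups overlapped, with all 3 KO libraries above WT replicates 1 and 2 and below WT replicate 3. The difference of -0.03 (SE 0.26) had a 95% interval of -0.58 to 0.52 (limma, adjusted p = 0.972), and its sign turned under 3 other settings and without WT day 6 replicate 3 (0.41) or KO day 6 replicate 2 (0.12). On day 9, Evx1 was at 0.809 to 1.6 FPKM in KO and 1.08 to 2.41 FPKM in WT libraries, a difference of -0.36 (95% interval -0.90 to 0.19) that did not pass (adjusted p = 1). On days 0 and 3 every library of both genotypes was at or below 0.26 FPKM. The antisense Evx1os had the most similar course of all genes compared (r = 0.98), and without a stated strand setting its reads and those of Evx1 cannot be told apart. Tnnt3, a fast skeletal muscle troponin (0.98), and Msx1, a homeobox target of BMP signalling (0.96), came next. The 250 bases before the Evx1 start, at chr6:52313248-52313497 on the plus strand (RefSeq, GRCm38.p6), are shown beside those of T because the day 6 level of Evx1 in KO cells lay inside the WT range.
Evx1: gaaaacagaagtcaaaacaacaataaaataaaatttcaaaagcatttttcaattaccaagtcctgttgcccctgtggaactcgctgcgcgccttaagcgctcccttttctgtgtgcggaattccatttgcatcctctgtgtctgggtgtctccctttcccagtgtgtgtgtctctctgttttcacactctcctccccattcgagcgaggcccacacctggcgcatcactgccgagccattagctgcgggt
It holds no CTTTGA core on either strand, hence no capitals.

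T and Evx1, the members with the most and the least negative day 6 difference, were paired after their values had been seen, and their contrast is given as a description with no test. It can be read within each library, where any scaling common to both cancels except for the added 1. On day 6, log2(FPKM + 1) of T minus that of Evx1 averaged -1.17 ± 0.99 in KO and 1.57 ± 0.71 in WT libraries (SD, n = 3 each). The 3 KO libraries ran from -1.93 to -0.05 and the 3 WT libraries from 0.75 to 2.01, so the groups did not overlap. The means differed by -2.74. On day 9 this quantity averaged 0.76 ± 1.99 in KO and -0.52 ± 0.16 in WT libraries, with the KO mean set by replicate 1 at 3.06. On days 0 and 3 the KO and WT means differed by 0.01 and 0.08.

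**Figure D2:**
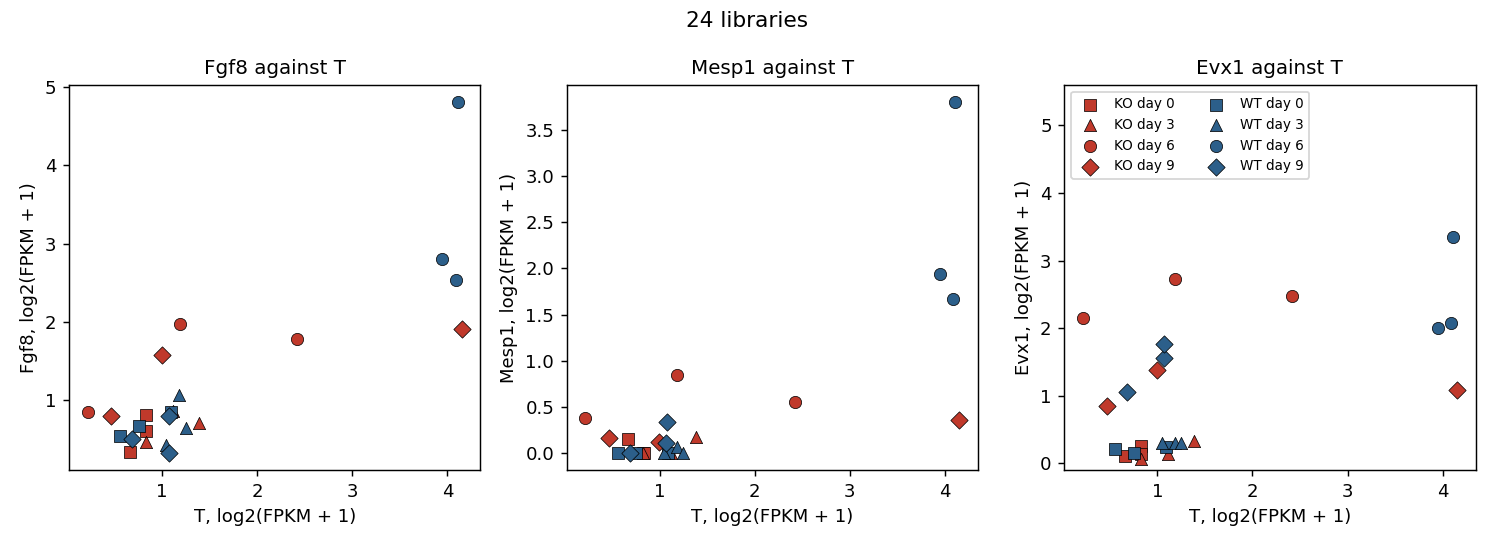
Fgf8, Mesp1 and Evx1 (vertical axes) against T (horizontal axes) in each of 24 libraries, all as log2(FPKM + 1), with KO in red, WT in blue and a marker shape for each day. The WT day 6 libraries and KO day 9 replicate 1 lie at the right of every panel, and in the Evx1 panel the KO day 6 libraries lie within the height range of the WT day 6 libraries, at lower T. Over the 24 libraries, r with T was 0.83 for Fgf8, 0.76 for Mesp1 and 0.55 for Evx1.

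Mesp1, the basic helix-loop-helix factor of nascent and early cardiac mesoderm, lies at chr7:79792241-79793788 on the minus strand. On day 6 it measured 0.796, 0.297 and 0.467 FPKM in KO replicates 1, 2 and 3, from 11, 7 and 12 reads, against 2.83, 2.18 and 12.9 FPKM in WT replicates, from 41, 47 and 72 reads. All KO values lay below all WT values, and WT replicate 3 was far above its group. The mean was 0.520 ± 0.254 FPKM in KO and 5.99 ± 6.04 FPKM in WT cells (SD, n = 3 each). limma gave a difference of -1.88 (SE 0.33, 95% interval -2.56 to -1.20, adjusted p = 0.00556), and the exact permutation p was again 0.1. Mesp1 exceeded 1 FPKM only in WT day 6 and entered the test through that group alone. On every other day its level was at most 0.282 FPKM in KO and 0.264 FPKM in WT libraries, with 0 to 8 reads in a library. The gene most like Mesp1 was Lhx1, a LIM homeobox gene of the anterior streak (r = 0.97), followed by Prss40 and Lhx1os (0.93 each).

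Near its start Mesp1 holds the core CTTTGA on the sense strand, and this short site is shown for comparison with T. The 30 bases at chr7:79793604-79793633, minus strand (RefSeq, GRCm38.p6), read as follows, with the core in capitals.
Mesp1: ggctcgagccggCTTTGAtatgctgatgaa
The core begins 31 bases before the RefSeq start, and another match begins 72 bases before it. GENCODE places the Mesp1 start further upstream, so that this site falls inside its transcript there.

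Mesp2, the neighbouring paralogue that sets somite boundaries (chr7:79810727-79813439, plus strand), did not follow the wave. Its highest values were those of days 0 and 3, when it reached 1.32 FPKM in KO and 1.22 FPKM in WT libraries. On day 6 it measured 0.190, 0.0557 and 0.102 FPKM in KO replicates, from 4, 2 and 4 reads, against 0.362, 0.335 and 0.708 FPKM in WT replicates, from 8, 11 and 6 reads. The groups did not overlap, and the difference of -0.39 (95% interval -0.84 to 0.07) did not pass (limma, adjusted p = 0.564). The genes most like Mesp2 were Tbl2 (r = 0.91), Elf3, an epithelial ETS factor, and Msantd3 (0.83 each). Msgn1, a presomitic mesoderm factor (chr12:11208360-11208972, minus strand), had 0 reads in 15 of the 24 libraries. Its highest count was 9 reads (0.729 FPKM), in KO day 6 replicate 3, and every other library had 0 or 1 read.

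Fgf8, the secreted ligand of the streak, lies at chr19:45736798-45742915 on the minus strand. On day 6 it measured 2.94, 0.802 and 2.43 FPKM in KO replicates 1, 2 and 3, against 5.99, 4.78 and 26.8 FPKM in WT replicates. The groups did not overlap, and the WT mean was drawn up by replicate 3. The mean was 2.06 ± 1.12 FPKM in KO and 12.5 ± 12.4 FPKM in WT cells (SD, n = 3 each), 6.10-fold lower in KO and 2.62-fold lower without WT replicate 3. limma gave a difference of -1.84 (SE 0.42, 95% interval -2.72 to -0.97, adjusted p = 0.0414), and the exact permutation p was 0.1. On day 9 it was 2.76, 1.99 and 0.739 FPKM in KO replicates, against 0.424, 0.259 and 0.748 FPKM in WT replicates. KO replicates 1 and 2 stood above the WT range and KO replicate 3 within it, and the difference of 0.88 (95% interval 0.01 to 1.76) did not pass (limma, adjusted p = 0.942). Lhx1 (r = 0.96), Lhx1os (0.92) and Prss40 (0.91) were most like Fgf8. Within the 9 genes, Mesp1 and Fgf8 were the most similar pair (r = 0.94). The table of promoters gave none for Fgf8 or Mixl1.

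**Figure D3:**
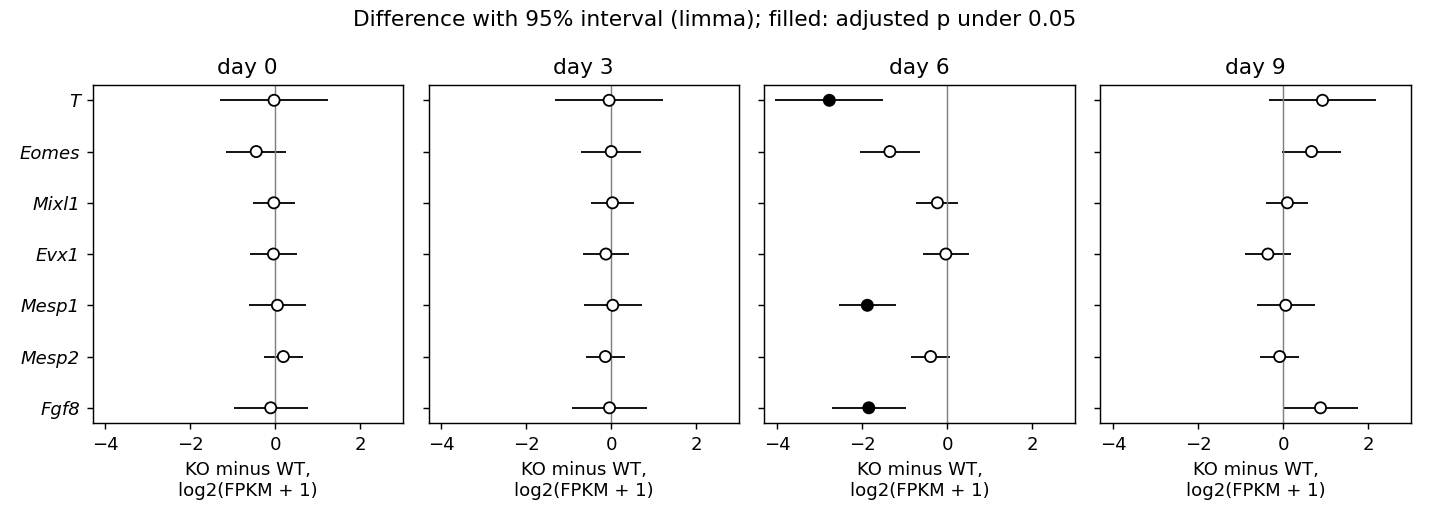
KO minus WT difference in log2(FPKM + 1) for the 7 tested members on days 0, 3, 6 and 9, with 95% intervals from limma (n = 3 libraries a group); filled points have an adjusted p under 0.05. The filled points are T, Mesp1 and Fgf8 on day 6, and every interval of days 0 and 3 spans 0.

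The calls on day 6 depended on single libraries and settings. T was called lower under 14 of 33 other settings, Mesp1 under 28 of 32, Fgf8 under 6 of 32 and Eomes under 3 of 32, always with a negative difference. Without WT day 6 replicate 3, which had the highest Eomes, Mesp1, Fgf8, Evx1 and Tbx6 of its group, only Mesp1 was called (-1.21, adjusted p = 0.000287), with T at -2.74 (adjusted p = 0.139) and Fgf8 at -1.13 (0.214). Without KO day 6 replicate 2, which had the lowest T, Mesp1, Mesp2 and Fgf8, 0 members were called in KO against WT (T -2.25, Mesp1 -1.77, Fgf8 -1.50, limma adjusted p = 0.251, 0.0508 and 0.295). Without KO day 6 replicate 3, the library with the highest Atf3 of the KO groups, T (-3.35, adjusted p = 0.0077) and Mesp1 (-1.86, 0.0131) were called and Fgf8 was not (-1.96, 0.0547). Without KO day 9 replicate 1, whose value enters the shared spread, T, Eomes, Mesp1 and Fgf8 were all called on day 6, T with an adjusted p of 0.000124 and Eomes with 0.0244. Leaving out WT day 0 replicate 3, WT day 9 replicate 2, KO day 3 replicate 3 or any KO day 0 library also left Mesp1 as the only call (T at an adjusted p of 0.0519 to 0.053). T was not called without WT day 6 replicate 1 (adjusted p = 0.102) or KO day 6 replicate 1 (0.0689). Fgf8 kept its call in 5 of the 24 fits that each left out 1 library.

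On the other days 0 of the 7 tested members were called between genotypes. On day 0, limma called 0.0132% of all genes in either direction, and 0 members had an unadjusted p under 0.05. The numbers on day 3 were the same, with 0.0132% of all genes and 0 members. On day 9, 0.963% of all genes were called in either direction. An unadjusted p under 0.05 was found for 1 member, Fgf8, and for 789 of all 15159 genes. The fit of weighted read counts (limma's voom) also called 0 members on these 3 days, and 0 on day 6.

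Within WT cells T, Mesp1, Fgf8 and Evx1 were called at the step to day 6 and at the step to day 9, and Eomes at all 3 steps. From day 0 to day 3 limma called 1 of the 7 tested members lower, Eomes, at 1.43, 1.39 and 1.07 FPKM on day 3 against 3.67, 4.26 and 4.87 FPKM on day 0 (-1.20, adjusted p = 0.0118). Of all genes, 14.5% were lower at that step. On day 6 against day 3, 5 of 7 members were higher, while 19.5% of all genes were. The differences were 2.89 for T, 2.66 for Fgf8, 2.45 for Mesp1, 2.18 for Evx1 and 1.27 for Eomes (adjusted p from 2.83e-06 for Evx1 to 0.00584 for Eomes). T averaged 15.6 ± 0.99 FPKM on WT day 6 and 1.24 ± 0.16 FPKM on WT day 3 (SD, n = 3 each), 12.6-fold higher. On day 9 against day 6 the same 5 members were lower, against 5.13% of all genes. Mesp1 entered the test only through WT day 6, so the filter itself favoured its place in both counts. The differences were -3.11 for T, -2.83 for Fgf8, -2.32 for Mesp1, -1.92 for Eomes and -1.01 for Evx1 (adjusted p from 7.21e-05 for Mesp1 to 0.0147 for Evx1). T was 16.6-fold, Fgf8 26.3-fold and Evx1 2.84-fold lower in mean FPKM on day 9 than on day 6. Without WT day 6 replicate 3, Fgf8 was 11.3-fold and Evx1 1.71-fold lower. Evx1 did not pass this last step without WT day 6 replicate 3 or without WT day 9 replicate 1, and Mixl1 passed without KO day 6 replicate 3.

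Within KO cells limma passed fewer of these steps. From day 0 to day 3, 0 of 7 members were called by limma and 0 by voom, against 28.1% of all genes in either direction (limma). An unadjusted p under 0.05 was found for 1 member and for 5834 of all 15159 genes. Without KO day 3 replicate 1, Mesp2 was called lower at that step. On day 6 against day 3, only Evx1 was called, at 5.62, 3.43 and 4.55 FPKM on day 6 against 0.260, 0.0447 and 0.102 FPKM on day 3 (2.27, adjusted p = 1.4e-06), while 17.7% of all genes were higher. T differed by 0.16 (95% interval -1.10 to 1.43), Mesp1 by 0.53 (-0.14 to 1.21) and Fgf8 by 0.86 (-0.02 to 1.73) at that step. All KO values of Mesp1 on day 6 (0.297 to 0.796 FPKM) lay above those on day 3 (0 to 0.126 FPKM). By voom, 3 members were called at that step. Mesp1 and Fgf8 were also called there without WT day 6 replicate 3, and Mesp2 without KO day 3 replicate 3. On day 9 against day 6, only Evx1 was called, lower by a difference of -1.34 (adjusted p = 0.00185), while 2.45% of all genes were lower.

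The difference between the KO and WT steps was tested directly as an interaction. From day 0 to day 3 it was passed by 0 of 7 members, with 0 at an unadjusted p under 0.05 and 0 by voom, against 0.0132% of all genes. From day 3 to day 6 it was passed by 0 of 7 members, against 0.0726% of all genes in either direction. At that step 4 members had an unadjusted p under 0.05, beside 584 of all 15159 genes, and voom called 0 members. T was at -2.72 (limma, adjusted p = 0.625), Mesp1 at -1.91 (0.221), Fgf8 at -1.80 (0.702) and Eomes at -1.35 (0.79). With 1 library left out, Mesp1 passed without WT day 6 replicate 2 or replicate 3, and T passed without KO day 9 replicate 1. From day 6 to day 9, T (3.70, adjusted p = 0.0413), Fgf8 (2.73, 0.0255), Eomes (2.02, 0.0456) and Mesp1 (1.94, 0.0456) passed with a higher KO than WT step, against 0.6% of all genes. Evx1 did not (-0.33, 95% interval -1.10 to 0.45, adjusted p = 0.819). This contrast takes in the day 6 difference between genotypes, and 0 members were called between genotypes on day 9. Mesp1 entered the test only through WT day 6, where it was high. Without KO day 9 replicate 1 only T passed, without WT day 6 replicate 3 Mesp1 and Fgf8 passed, and without KO day 6 replicate 2 none of the 7 did. Over the 24 fits that each left out 1 library, the count of 4 stayed within 1.5 times in 4.

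Several genes that act with the members in the streak were lower in KO cells on day 6. Of 16 streak and mesendoderm partner genes, all tested, 6 were called lower, 0 higher and 10 did not pass. Of all genes tested, 0.495% were called lower and 0.231% higher. The list's median difference was -0.62 beside 0.02 over all genes. Cer1 was listed at 0 in all 3 KO libraries, against 11, 5.07 and 6.86 FPKM in WT libraries, at least 67.7-fold lower in KO when the KO mean is set to 3 reads a library (adjusted p = 7.84e-07). Otx2, a head and anterior streak homeobox gene, measured 0.284, 0.218 and 0.200 FPKM in KO libraries, against 4.1, 3.52 and 13.5 FPKM in WT libraries (-2.49, adjusted p = 0.00231). Lhx1 measured 0.793, 0.519 and 0.719 FPKM in KO libraries, against 4.42, 3.55 and 27.9 FPKM in WT libraries (-2.42, adjusted p = 0.00692). Outside WT day 6, Cer1 and Lhx1 reached 1 FPKM only in KO day 9 replicate 1. Both therefore passed the filter only through WT day 6, where they were high, and both count among the 6. The other genes called lower were Gsc, Aplnr and Chrd. With Cer1 at its bound the median stayed at -0.62, and without WT day 6 replicate 3 the list had 5 calls. Rescaled to TPM, where every library sums to the same total, the list had 5 calls and a median of -0.02, with a median of 0.51 over all genes.

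On day 9, 1 of these 16 genes was called, in the other direction, while 0.963% of all genes were called in either direction. Aplnr, the apelin receptor of early mesoderm, measured 7.16, 3.57 and 3.10 FPKM in KO libraries, against 1.06, 1.78 and 1.36 FPKM in WT libraries (1.16, limma adjusted p = 0.025). Without KO day 9 replicate 1 and by voom, 0 of the 16 were called. Cer1 on day 9 measured 2.04, 0.537 and 0.191 FPKM in KO libraries, against 0.0988, 0.115 and 0.0387 FPKM in WT libraries, a difference that did not pass (0.71, adjusted p = 0.362). KO day 9 replicate 1 had the highest level of its group in T, Eomes, Mesp1, Fgf8, Cer1, Lhx1, Otx2 and Aplnr. It had the lowest Tbx6 (0.15 FPKM) and Mesp2 (0.0462 FPKM) of its group, and its Evx1 and Mixl1 values were the middle ones.

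**Figure D4:**
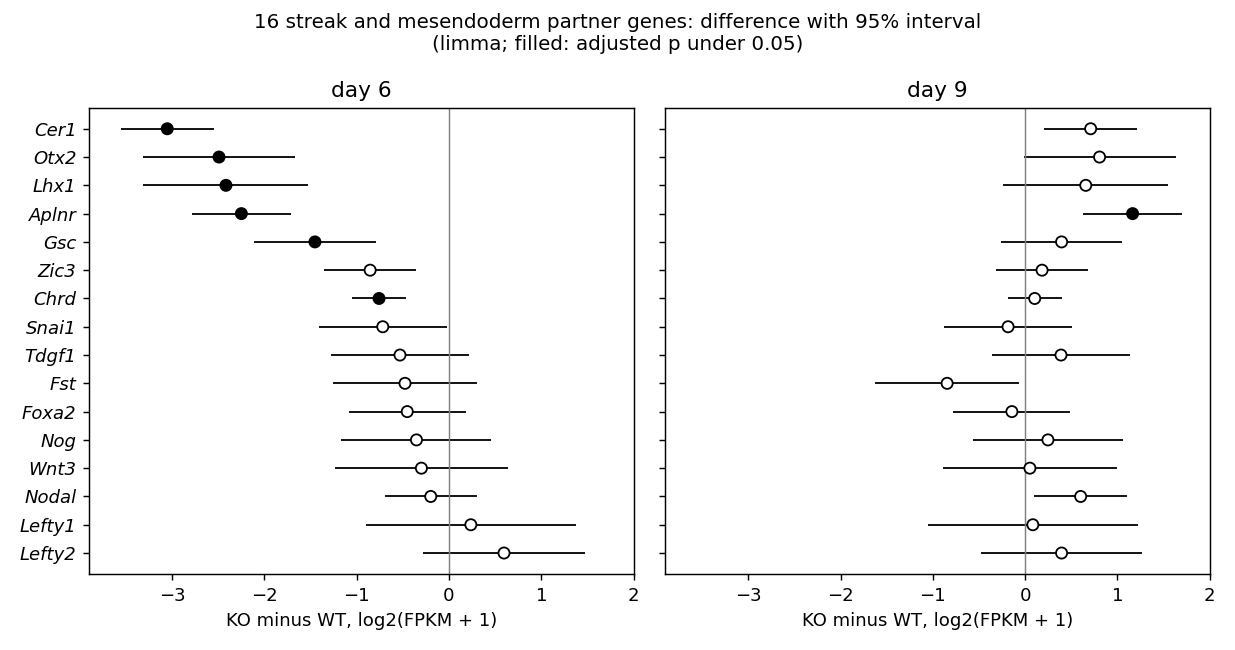
KO minus WT difference in log2(FPKM + 1) for the 16 streak and mesendoderm partner genes on day 6 (left) and day 9 (right), with 95% intervals from limma; filled points have an adjusted p under 0.05. On day 6 the 6 filled points lie below 0, from Cer1 at a fitted -3.05 (its KO libraries are listed at 0) to Chrd at -0.76, and on day 9 the only filled point is Aplnr at 1.16.

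The next list held 23 WNT, Nodal and BMP signal genes that act before the streak factors, all tested. On day 6, 1 was called higher in KO and 0 lower, with a list median of 0.04. Of all genes tested, 0.231% were called higher and 0.495% lower. The gene called was Wnt5a, a ligand of non-canonical WNT signalling, at 6.80, 10.4 and 14.3 FPKM in KO libraries, against 4.17, 6.11 and 2.90 FPKM in WT libraries (1.08, adjusted p = 0.0221). It did not pass without WT day 6 replicate 3, nor under TPM, equal sums or voom. Bmp4 measured 32.3, 28.0 and 33.5 FPKM in KO libraries, against 24.6, 27.5 and 30.7 FPKM in WT libraries (0.18, adjusted p = 0.73). In WT cells it was higher on day 6 than on day 3 (3.28, adjusted p = 5.93e-10), while Tdgf1, the Nodal co-receptor, which is also among the partner genes, was lower (-3.36, adjusted p = 6.35e-07). Of 21 FGF ligand, receptor and ERK feedback genes, 0 were called on day 6 by limma and 0 by voom, with a median of -0.11. limma put 2 of the 21 at an unadjusted p under 0.05, beside 1516 of all 15159 genes. Spry2, an inhibitor of receptor tyrosine kinase signalling and the most abundant of them, measured 10.2, 10.4 and 8.89 FPKM in KO libraries, against 10.6, 13.2 and 43.2 FPKM in WT libraries (-0.84, adjusted p = 0.553). Of this list Fgf3 was higher on WT day 6 than on WT day 3 (2.74, adjusted p = 2.8e-05) and Fgf4 lower (-2.15, 0.000207).

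For genes of later or more caudal mesoderm, the day 6 calls stand beside 0.495% of all genes called lower and 0.231% higher. Counts at an unadjusted p under 0.05 stand beside 1516 of all 15159 genes (limma). Of 14 caudal and tail bud genes, 11 were tested, with 5 at an unadjusted p under 0.05 (limma) and a median of -0.15. In KO on day 6, 2 were called lower and 0 higher. They were Sp5, a WNT target, at 0.923, 0.928 and 2.36 FPKM in KO libraries, against 3.98, 4.45 and 3.93 FPKM in WT libraries (-1.14, adjusted p = 0.0244), and Hoxb1 (-1.05, adjusted p = 0.00425). Cdx2, a caudal homeobox gene, and Cyp26a1, an enzyme that degrades retinoic acid, had the largest steps of this list in WT cells from day 3 to day 6 (3.85 and 3.19). Without WT day 6 replicate 3 and by voom the list had 1 call, and under TPM it had 0. Of 18 presomitic and somite genes, 10 were tested, with 6 at an unadjusted p under 0.05 (limma) and a median of -0.90. Of the 10, 2 were called lower and 0 higher. Dll3, a Notch ligand of the presomitic mesoderm, measured 0.842, 0.475 and 0.801 FPKM in KO libraries, against 7.80, 3.78 and 8.05 FPKM in WT libraries (-2.09, adjusted p = 4.61e-05). Foxc2, a forkhead factor of paraxial mesoderm, measured 0.203, 0.258 and 0.109 FPKM in KO libraries, against 4.32, 2.15 and 3.45 FPKM in WT libraries (-1.82, adjusted p = 0.000195). Without WT day 6 replicate 3 this list had 4 calls. On day 9 Foxc2 was higher in KO cells (1.16, adjusted p = 0.01), a call lost without KO day 9 replicate 1 and by voom. At the WT step from day 3 to day 6, Cited1 was higher (3.29) and Dll1, a Notch ligand, lower (-2.51).

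Of 16 lateral and cardiac mesoderm genes, 15 were tested, and limma and voom each called 0 on day 6, with a median of -0.33. limma put 4 of the 15 at an unadjusted p under 0.05, beside 1516 of all 15159 genes. Hand1, the most abundant and a factor of lateral and extraembryonic mesoderm, measured 337, 304 and 196 FPKM in KO libraries, against 246, 150 and 249 FPKM in WT libraries (0.37, adjusted p = 0.606). In WT cells 14 of the 15 were higher on day 6 than on day 3, with Hand1 (5.71) and Hand2 (3.33) showing the largest steps, and in KO cells 13 were. Of all genes tested, 19.5% in WT and 17.7% in KO cells were higher at that step. Of 14 other T-box genes, 7 were tested and 1 was called, Tbx1, at 0.0519, 0.0305 and 0.112 FPKM in KO libraries, against 3.26, 1.3 and 2.45 FPKM in WT libraries (-1.60, adjusted p = 0.0176). The list had 0 calls without WT day 6 replicate 3, under TPM, under equal sums or by voom. Of all genes tested, 0.495% were called lower on day 6. Tbx2 (2.61) and Tbx3 (1.65) were higher on WT day 6 than on WT day 3. On day 9 the T-box genes Tbx5 (0.86, adjusted p = 0.00399) and Tbx4 (-1.29, adjusted p = 0.00535) were called in opposite directions in KO against WT, and voom called 1 gene of the list. Of all genes tested, 0.963% were called in either direction on day 9.

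Markers of other cell types also moved on day 6. Of 6 primitive erythroid markers (Hbb-bh1, Hbb-y, Hba-x, Alas2, Klf1 and Gata1), 5 were tested and 4 were called higher in KO by limma, against 2 called by voom. Of all genes tested, limma called 0.231% higher. The summed level of the 6 markers was 2063, 2498 and 163 FPKM in KO replicates 1, 2 and 3, against 86.0, 23.3 and 30.7 FPKM in WT replicates. None of the 6 was at 0 in KO. KO replicate 2, with the lowest T, Mesp1 and Fgf8, had the highest erythroid sum, and KO replicate 3, with the highest T, had the lowest. The highest Mesp1 and Fgf8 of this group were in KO replicate 1, which had an erythroid sum of 2063 FPKM. A relation between these levels was not tested. The summed level of 7 yolk sac endoderm markers was 547, 474 and 49.0 FPKM in those KO libraries, against 198, 80.8 and 63.8 FPKM in WT libraries, with 0 of 6 tested called by limma or voom and 0 at an unadjusted p under 0.05. Of 5 epiblast markers, 1 was called lower in KO, Otx2, which is also among the partner genes, and the sums were 39.9 to 50.7 FPKM in KO and 49.5 to 151 FPKM in WT libraries. The 8 naive markers summed to 20.6 to 48.5 FPKM in KO and 15.7 to 55.6 FPKM in WT libraries, the 7 neural markers to 10.4 to 12.2 and 9.64 to 10.7 FPKM, the 9 trophoblast markers to 12.6 to 15.2 and 11 to 13.5 FPKM, and the 6 germ cell markers to 4.49 to 7.84 and 6.33 to 11 FPKM. Of these 4 lists, 0 genes were called by limma or voom on day 6, and 1, a trophoblast marker, had an unadjusted p under 0.05. By limma, 1516 of all 15159 genes did. At 0 in both genotypes were the trophoblast markers Tpbpa and Prl3d1, and at 0 in WT day 6 were Neurog2 and Dazl. On day 9 the trophoblast sum was 5.02 to 16.7 FPKM in KO and 50.9 to 90.4 FPKM in WT libraries, with 3 of 5 tested markers called lower in KO. Of all genes tested, 0.963% were called in either direction on day 9. The part of these cell types, of ribosomal RNA share and of depth in the differences of the streak genes was not tested.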

How the data were processed

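RNA sequencing of 24 mouse stem cell libraries was analysed from the gene table of FPKM values deposited by the authors. Poly(A) RNA libraries were made with NEBNext Ultra II and read from paired ends, per the labels' protocols. The submitters' processing notes name the build mm10, the aligner HISAT2 2.2.1, the counter featureCounts 2.0.1 and, besides these, DESeq2 1.30.1 in R 4.1.0, Trimmomatic 0.39 and FastQC 0.11.9. The sources used here do not give the strand setting of the counting. FPKM scale counts by gene length and library. Here they were log2 transformed after adding 1, and genes with at least 1 FPKM in at least 3 libraries (15159) were fitted with limma 3.58.1 (R 4.3.3, trended prior, 8 groups, 16 residual degrees of freedom, Benjamini-Hochberg adjustment over all genes). Dividing FPKM by the value of 1 read at GENCODE exon lengths gave whole reads, within 0.05, for 95.5 to 96.9% of values up to 50 reads. Those reads give the depths and a voom alternative. Wilson intervals and read floors cover counting error only, while the limma intervals rest on the spread between libraries. Libraries of the same group differed beyond sampling noise (chi-square over its degrees of freedom 7.58 to 295), so none was treated as a copy. On simulated data with 15159 genes, limma recovered 53% of 2-fold and 95% of 4-fold changes for KO against WT at day 6. These are not rates for the members, of which Eomes (4.18-fold lower in mean FPKM in KO) and Mesp2 (4.04-fold) were not called. Libraries carried replicate numbers except 1 of KO day 0, which was placed by its group name. The numbers paired libraries on day 3 (correlations of 0.599 to 0.655 between same-numbered KO and WT libraries), and no such pairing by number was seen on the other days.

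The members and gene lists were chosen with earlier results of these data known. A marker of the erythroid list is not reported here. Named genes were up to 3 called genes of each list with the largest KO minus WT difference at day 6 (the most abundant where none was called), up to 2 for the WT step from day 3 to day 6, and the 3 genes most correlated with each tested member, passing over predicted genes. Genes outside this rule (Gsc, Aplnr and Chrd on day 6, Aplnr, Cer1, Foxc2, Tbx4 and Tbx5 on day 9, and Bmp4 at day 6) were named after their values were seen. Alternatives were another pseudocount, no or a stricter filter, TPM, equal library sums, replicate blocks, fits of only the groups compared, voom and leaving out each library. Figures used matplotlib 3.10.9.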

Additional observations from a re-analysis of the deposited data

Results flagged for a closer look

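For 4 of the 7 tested genes the step from day 6 to day 9 was higher in KO than WT cells, as the interaction term in limma, against 0.6% of all genes. This contrast takes in the day 6 difference between genotypes and is not separate from it. For T, KO minus WT was -2.77 on day 6 and 0.93 on day 9, and 0 members were called between genotypes on day 9. The KO step minus the WT step was 3.70 for T (adjusted p = 0.0413), 2.02 for Eomes (0.0456), 1.94 for Mesp1 (0.0456) and 2.73 for Fgf8 (0.0255), all on the log2(FPKM + 1) scale with n = 3 libraries a group. For T, day 9 minus day 6 was 0.60 in KO cells, which did not pass, and -3.11 in WT cells, which did (adjusted p = 0.654 in KO and 0.00185 in WT). Among the other alternatives, Fgf8 passed in 23 of 32, Mesp1 in 6 of 32, Eomes in 5 of 32 and T in 5 of 33. KO day 9 replicate 1, with T at 16.7 FPKM, had a ribosomal RNA share of 7.34% (95% Wilson interval 7.324 to 7.348%) and 18044760 reads, both inside the range of the other libraries. Its marker sums were the lowest of its group for yolk sac endoderm (26.6 against 141 and 249 FPKM) and primitive erythroid cells (111 against 437 and 403 FPKM). The trophoblast, naive, epiblast and germ cell sums were also the lowest, and the neural sum was the middle one. The part of these cell types in its T level was not tested.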

How the results depend on the processing

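The T, Mesp1 and Fgf8 differences on day 6 kept their negative sign under every alternative run, and calls were lost as follows (the cause was not tested). The count of 3 members called on day 6 was 1 with a pseudocount of 0.1, with no filter, under TPM and with the replicate block, and 0 with the filter at 5 FPKM (1 member left to test), the replicate block within each day, only the groups compared, and voom. T was not called with the pseudocount of 0.1 (-3.74), no filter (-2.77), the filter at 5 FPKM (-2.77), TPM (-2.34), equal sums (-2.56), the replicate block (-2.77), the block within each day (-2.77), only the groups compared (-2.77) and voom (-3.97). Fgf8 was not called with the pseudocount of 0.1 (-2.28), no filter (-1.84), TPM (-1.30), the replicate block (-1.84), the block within each day (-1.84), only the groups compared (-1.84) and voom (-2.17). Mesp1 was not called with the block within each day (-1.88), only the groups compared (-1.88) and voom (-2.88). Values that changed sign were Mixl1 under TPM (0.083) and Evx1 under TPM (0.63), equal sums (0.075) and voom (0.11). TPM moved the median of all genes on day 6 to 0.51, against 0.02.

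The filter at 5 FPKM left 0 calls at the WT step to day 3, 1 at the WT steps to day 6 and to day 9, 0 at the KO steps to day 6 and to day 9, and 0 for the interaction of day 6 to day 9. TPM gave 0 at the WT step to day 3, 3 at the KO step to day 6 and 2 for that interaction. Only the groups compared gave 1 at the WT step to day 9, 1 at the KO step to day 3, 2 at the KO step to day 6, 0 at the KO step to day 9 and 0 for that interaction. At the KO step to day 6, the pseudocount of 0.1 and voom gave 3 each and the replicate block within each day gave 2. For the day 6 to day 9 interaction the pseudocount of 0.1 and the replicate block gave 1 each, equal sums 2, and no filter, the block within each day and voom 0 each.

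Leaving out each library in turn gave 0 to 4 calls on day 6, 4 to 6 at the WT step to day 9, 0 to 1 at the KO step to day 3, 1 to 3 at the KO step to day 6, 0 to 1 for the interaction of day 3 to day 6, and 0 to 4 for that of day 6 to day 9. Day 6 differences ran from -3.35 to -2.25 for T, -1.64 to -0.92 for Eomes (called in 3 of these), -0.27 to 0.41 for Evx1, -2.28 to -1.21 for Mesp1 and -2.27 to -1.13 for Fgf8. Same-numbered KO and WT libraries correlated at -0.467 to 0.265 on day 6, where 0 of 3 correlated best with their own number, at -0.459 to 0.196 on day 9 and at -0.106 to 0.12 on day 0. The numbers therefore showed no pairing on these days. Differently numbered libraries correlated at 0.676 on day 6 (KO replicate 3 with WT replicate 2) and 0.665 on day 9 (KO replicate 2 with WT replicate 3). A culture or batch shared across genotypes was not tested. On day 3 the replicate block changed no member's call.

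The alternatives for gene lists and for folds of means were added after the data had been seen. With 3 libraries a group, T at 7 reads in KO day 6 replicate 2, and Mesp1, Mesp2 and Msgn1 at 12 reads or fewer in every KO day 6 library, single low values weigh heavily.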
